A study of Mus musculus with 2 samples.

Results

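The mouse Hox clusters hold 6 annotated microRNA genes, Mir196b in Hox A, Mir196a-1 and Mir10a in Hox B, Mir196a-2 and Mir615 in Hox C and Mir10b in Hox D. They were taken by gene name from the 2202 microRNA genes of the GENCODE M21 annotation that the count tables list, and all 6 were found. MicroRNA-seq, which sequences short RNA inserts (under 30 nt here), had been run on whole gastrocnemius, a large hindlimb muscle of the calf. The donors were male, adult, 18 to 20 months old and of the strain B6CASTF1/J, a first-generation cross of C57BL/6J with CAST/EiJ. The labels form 1 group of 2 libraries, biological replicates 2 and 1, with no treatment and no second tissue or age. Each library has its own biosample, but both biosamples point to the same donor record, and no label says that they are separate animals, so differences between the libraries may be technical. Depth, as the total of counts in microRNA genes, was 2156222 in replicate 2 and 4442692 in replicate 1. In bulk tissue, fewer cells of a type and less RNA per cell cannot be told apart.

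Hox genes encode transcription factors that give the body axis and the limbs their regional identity, and the order of the genes in a cluster follows the order of their domains along the axis. The microRNA genes lie between or within them and are annotated on the same strand as the neighbouring Hox genes. A microRNA is cut from a hairpin precursor, and its seed (bases 2 to 8 of the mature strand) pairs with sites in messenger RNAs to repress them. Hox messenger RNAs are among the known targets: in mouse embryos miR-196 directs cleavage of the Hoxb8 messenger, and in human breast cancer cells miR-10b represses HOXD10.

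The mature strands show which members can act on the same sites and which can be told apart by their reads. They are given from RefSeq on GRCm38.p6, the assembly also called mm10, 5′ to 3′, with the seed in capitals. The 5′ strand is shown for the Mir10 and Mir196 genes, and the 3′ strand for Mir615.
mmu-miR-10a-5p: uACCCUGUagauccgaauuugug
mmu-miR-10b-5p: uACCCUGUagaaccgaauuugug
mmu-miR-196a-5p: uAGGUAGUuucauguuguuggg
mmu-miR-196b-5p: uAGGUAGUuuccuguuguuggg
mmu-miR-615-3p: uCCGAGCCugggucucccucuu
Counted from the 5′ end, miR-10a-5p and miR-10b-5p differ by U12A alone, with miR-10a's base first, and miR-196a-5p and miR-196b-5p differ by A12C alone, with miR-196a's base first. Both changes lie outside the seed. The members thus fall into 3 seed groups: the Mir10 genes share ACCCUGU, the Mir196 genes share AGGUAGU, and the seed CCGAGCC of miR-615-3p has no other carrier among the 1738 mature strands of the RefSeq table. No mature strand outside the members carries the Mir10 or the Mir196 seed either. The count tables give 1 value per gene, so reads of the 5′ and the 3′ strand of a hairpin were not separated.

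The Mir10 genes and the Mir196 genes each hold like places in different clusters. Mir10b (ENSMUSG00000065500.3, chromosome 2 from 74726070 to 74726137, plus strand) and Mir10a (ENSMUSG00000065519.1, chromosome 11 from 96317165 to 96317274, plus strand) both lie just upstream of a fourth-group gene, at 1.14 kb from the coding sequence of Hoxd4 and 1.496 kb from that of Hoxb4. Mir10b is intronic to Hoxd3 and Hoxd4 transcripts, and Mir10a is intergenic. The Mir196 genes lie upstream of a ninth-group gene. Mir196b (ENSMUSG00000065443.1, chromosome 6 from 52230081 to 52230165, minus strand) overlaps an exon of Hoxa9 transcripts and lies between the coding sequences of Hoxa10, at 2.34 kb, and Hoxa9, at 3.98 kb. Mir196a-2 (ENSMUSG00000065488.2, chromosome 15 from 102973350 to 102973434, plus strand) lies between those of Hoxc10, at 2.28 kb, and Hoxc9, at 8.22 kb, within an intron of a long Hoxc5 transcript. Mir196a-1 (ENSMUSG00000065546.1, chromosome 11 from 96265164 to 96265265, plus strand) is intergenic, 6.28 kb from the coding sequence of Hoxb9 and 68.9 kb from that of Hoxb13. Mir615 (ENSMUSG00000076010.1, chromosome 15 from 103014910 to 103015001, plus strand) shares its seed with no other member and lies in the intron between the coding exons of Hoxc5.

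**Figure D1:**
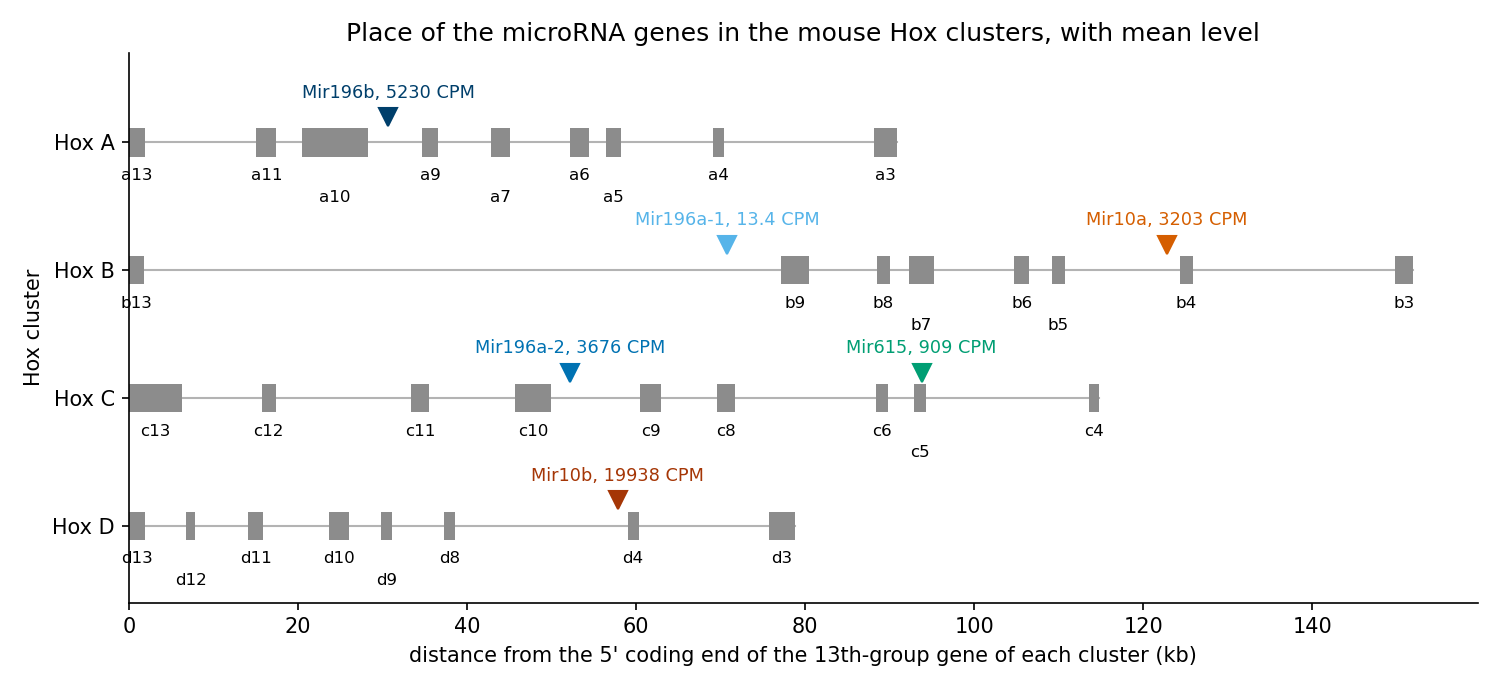
The coding spans of the Hox genes (grey boxes, named below the line, with the most anterior groups not drawn) and the microRNA genes (triangles) of the 4 clusters are drawn to scale along the distance in kb from the 5′ coding end of Hoxa13, Hoxb13, Hoxc13 or Hoxd13. Each microRNA gene is printed with its mean CPM over both libraries; Mir10b, upstream of Hoxd4, has the highest at 19938 CPM and Mir196a-1, upstream of Hoxb9, the lowest at 13.4 CPM.

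Among the Hox cluster microRNAs of this hindlimb muscle, Mir10b of Hox D was by far the most abundant, the Mir196 genes of Hox A and Hox C and Mir10a of Hox B followed within a narrow range, Mir615 was lower, and Mir196a-1 of Hox B was far below all of them. Together they held 3.33% of assigned counts in replicate 2 (Wilson 95% interval 3.30 to 3.35) and 3.27% in replicate 1 (3.25 to 3.28), a mean of 3.30% ± 0.0434 (SD, n = 2). All 6 reached the detection level of 2 CPM in both libraries, against 14.7% of the 2202 microRNA genes. A read of exactly miR-196a-5p matches both Mir196a genes, and reads that map to several places were not counted. The levels of Mir196a-1 and Mir196a-2 given here and below may thus be too low. Reads that map to several places were 70.2% of the reads of replicate 2 and 73.8% of those of replicate 1. MicroRNA genes with copies outside the members can lose reads in the same way. All shares, CPM and ranks are thus relative to uniquely assigned reads, and those of the other members may be too high. CPM are counts scaled to a common total of assigned counts; they were not divided by gene length, since inserts under 30 nt are about as long as the mature strands.

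For Mir10b, replicate 2 gave 41814 counts or 19392 CPM and replicate 1 gave 91002 counts or 20483 CPM, a mean of 19938 ± 772 CPM (SD, n = 2). The libraries lay within a few percent of each other, and Mir10b ranked 15th of all microRNA genes by mean CPM of assigned counts. For Mir10a, replicate 2 gave 7827 counts or 3630.0 CPM and replicate 1 gave 12336 counts or 2777 CPM, a mean of 3203 ± 603 CPM and rank 37. It was the more variable of the Mir10 genes, with a coefficient of variation of 18.8% against 3.87% for Mir10b.

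For Mir196b, replicate 2 gave 11825 counts or 5484 CPM and replicate 1 gave 22107 counts or 4976 CPM, a mean of 5230.1 ± 359 CPM (SD, n = 2) and rank 29. For Mir196a-2, replicate 2 gave 8563 counts or 3971 CPM and replicate 1 gave 15017 counts or 3380.2 CPM, a mean of 3676 ± 418 CPM and rank 35. These were the abundant Mir196 genes by counted reads, and each was the higher in replicate 2. Mir196a-1 had 39 counts in each library, which is 18.1 CPM (exact Poisson 95% interval 12.9 to 24.7) in replicate 2 and 8.78 CPM (6.24 to 12.0) in replicate 1. Its mean of 13.4 ± 6.58 CPM gave rank 230, with a coefficient of variation of 49.0%, the largest of the members. For Mir615, replicate 2 gave 1683 counts or 780.5 CPM and replicate 1 gave 4610 counts or 1038 CPM, a mean of 909 ± 182 CPM and rank 57. It was higher in replicate 1, unlike the Mir196 genes and Mir10a.

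**Figure D2:**
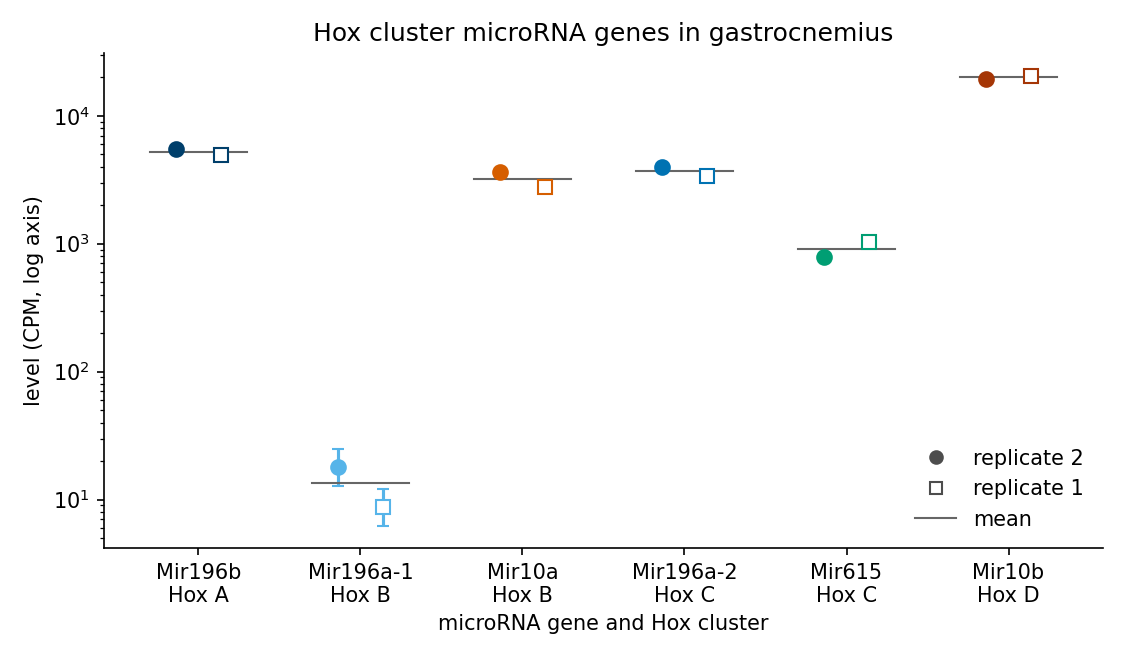
Level of each member in CPM on a log axis, ordered by Hox cluster A to D, with replicate 2 as filled circles, replicate 1 as open squares, the mean as a line and exact Poisson 95% intervals as bars, which are smaller than the symbols except for Mir196a-1. Mir10b stands above all others at 19392 and 20483 CPM, and Mir196a-1 far below at 18.1 and 8.78 CPM.

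**Figure D3:**
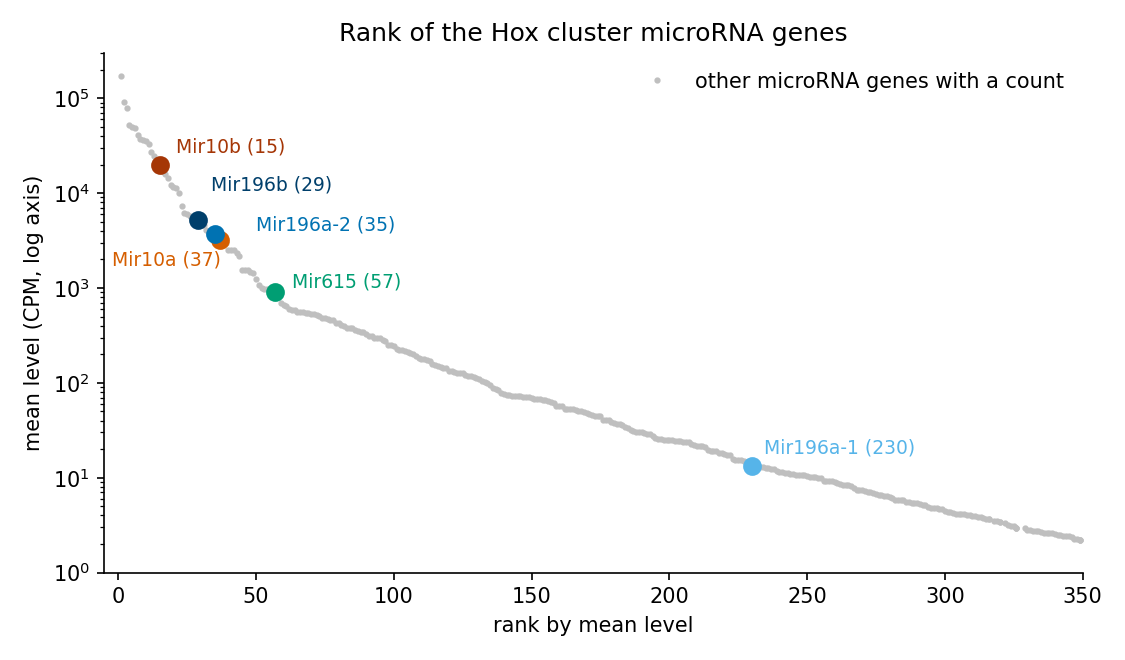
Mean CPM over both libraries on a log axis against rank, for microRNA genes with a count (grey) and the members (coloured, rank in brackets), with the lowest genes left off the right edge. The points of 4 members lie within the first 50 ranks, Mir615 lies at 57 and Mir196a-1 at 230.

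The order Mir10b, Mir196b, Mir196a-2, Mir10a, Mir615, Mir196a-1 was the same in both libraries. Between Mir196a-2 and Mir10a the library values overlapped, with a difference of the means of 472 CPM against summed SDs of 1021 CPM. Within a library Mir196a-2 was 1.09-fold Mir10a in replicate 2 (95% counting interval 1.06 to 1.13) and 1.22-fold in replicate 1 (1.19 to 1.25). The values of the other neighbours in the order did not overlap between libraries. With 2 libraries in 1 group the design allows no test of these levels over samples. The places of the Mir196a genes in the order rest only on reads that could be assigned to 1 of them.

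The Mir10 seed group was carried mainly by the Hox D gene. Mir10b was 5.34-fold Mir10a in replicate 2 (5.21 to 5.47, exact 95% counting interval) and 7.38-fold in replicate 1 (7.24 to 7.52), or 84.2% and 88.1% of their summed counts. The mean log2 ratio of Mir10b over Mir10a was 2.65 ± 0.33 (SD, n = 2). The shares differed between the libraries by more than counting error (two-sided Fisher's exact test, p = 4.08e-93), a test that compares these libraries and not conditions. The sum of both genes was close in the libraries, at 23022 CPM in replicate 2 and 23260.2 CPM in replicate 1. The Mir196 seed group summed to 9474 CPM in replicate 2, against 8365 CPM in replicate 1, a mean of 8919 ± 784 CPM. Within it Mir196b of Hox A was 1.38-fold Mir196a-2 of Hox C in replicate 2 (1.34 to 1.42) and 1.47-fold in replicate 1 (1.44 to 1.503). Reads of miR-196a-5p that map to both Mir196a genes were not counted, while miR-196b-5p lies in no other hairpin searched. The ratio may thus be too high, and the sum of the Mir196 group too low.

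By cluster, Hox D, with Mir10b alone, held 58.3% of the members' counts in replicate 2 and 62.7% in replicate 1. Hox A, with Mir196b alone, held 16.5% and 15.2% in replicates 2 and 1. Hox C held 14.3% and 13.5% in the same order, most of it Mir196a-2, and Hox B 10.96% and 8.53%, nearly all of it Mir10a. The order of the clusters was the same in both libraries. Reads that map to both Mir196a genes were not counted, so the shares of Hox B and Hox C may be too low.

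The gap between the Mir196a genes is the largest between paralogs here, and their hairpins show what their reads share. Both are given from RefSeq on GRCm38.p6, with miR-196a-5p in capitals.
Mir196a-1: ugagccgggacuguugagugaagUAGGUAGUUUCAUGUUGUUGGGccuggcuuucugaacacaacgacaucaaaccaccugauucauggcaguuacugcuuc
Mir196a-2: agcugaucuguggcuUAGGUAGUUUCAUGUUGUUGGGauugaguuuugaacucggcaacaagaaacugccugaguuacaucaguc
The 22 capital bases are the longest stretch the hairpins have in common, since the bases on either side of them differ between the loci. A read of exactly the mature strand therefore matches both genes, while a read with a further hairpin base on either end, or of the 3′ strand, matches 1 of them. Reads that map to several places are kept out of the gene counts and made up 70.2% of the reads of replicate 2 and 73.8% of those of replicate 1. In the counts kept, Mir196a-2 was 220-fold Mir196a-1 in replicate 2 (95% counting interval 160 to 309) and 385-fold in replicate 1 (282 to 542). The base after the mature strand is A in Mir196a-2 and C in Mir196a-1. Whether such end bases of the reads were copied from the hairpin was not tested, so a match to 1 gene does not prove origin. The counts of both genes and the gap between them are uncertain. How many of the reads left out belong to either was not tested. Of the other members with a hairpin in the RefSeq table, Mir10a and Mir10b share at most 15 bases with each other and Mir196b at most 12 with any of the 1004 other hairpins. Only these hairpins were searched, so copies elsewhere in the genome were not sought. Mir615 had no hairpin to compare.

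Mir99a, Mir99b and Mir100, which lie outside the Hox clusters, are old relatives of the Mir10 genes with the seed ACCCGUA. Their 5′ strands share up to 11 bases in a row with miR-10a-5p, from its base 7 onwards. Mir99a averaged 33058 ± 1300.4 CPM, Mir100 16909 ± 207 CPM and Mir99b 5351 ± 1228 CPM (SD, n = 2). These relatives thus summed to 57253 CPM in replicate 2 and 53384 CPM in replicate 1, above the sum of the Mir10 genes in both libraries. Mir10b lay between Mir99a and Mir100 in both.

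Replicate 2 was set against replicate 1 to see how far the members vary between samples with the same labels. Ratios were computed on CPM + 1 after edgeR's TMM scaling, and counts were compared by a two-sided exact binomial test, adjusted by Benjamini-Hochberg over the 380 genes with 10 or more counts. In it 5 of the 6 members passed an adjusted p of 0.05, and so did 61.8% of the genes tested. Of the members 4 were higher in replicate 2, where 30.3% of all genes tested were, and 1 was lower, where 31.6% were. The test takes only counting error into account, and the intervals of the ratios come from the counts without the added 1 CPM.

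All members except Mir196a-1 had log2 ratios between -0.32 and 0.48. Mir10a was 1.39-fold higher in replicate 2 (log2 ratio 0.48, 95% counting interval 0.44 to 0.52), Mir196a-2 had a log2 ratio of 0.33 (0.29 to 0.36) and Mir196b of 0.23 (0.20 to 0.27). Mir615 was the member lower in replicate 2, with its log2 ratio at -0.32 (-0.40 to -0.24). Mir10b was at 0.01 (-0.0025 to 0.03) and did not pass (adjusted p = 0.140, exact binomial test), and its direction and call depended on the scaling. It was -0.08 with plain totals, -0.02 with DESeq2's size factors (adjusted p = 0.00741) and 0.05 with the filter at 50 counts, the last also past the threshold; over all alternatives its adjusted p ranged from 6.35e-54 to 0.424. Mir196a-1 had the largest ratio of the members, a log2 ratio of 1.05 (0.46 to 1.81, adjusted p = 0.00121), from 39 counts in each library. It alone among the members reached 2-fold, which 31.6% of all genes tested did. On CPM + 1 it fell short with plain totals (0.96) and with no count filter or TMM factors from all genes (0.92 each). It also fell short, at 0.81, with a pseudocount of 5 CPM. The median size of the log2 ratio was 0.32 over the 6 members and 0.65 over the 380 genes.

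**Figure D4:**
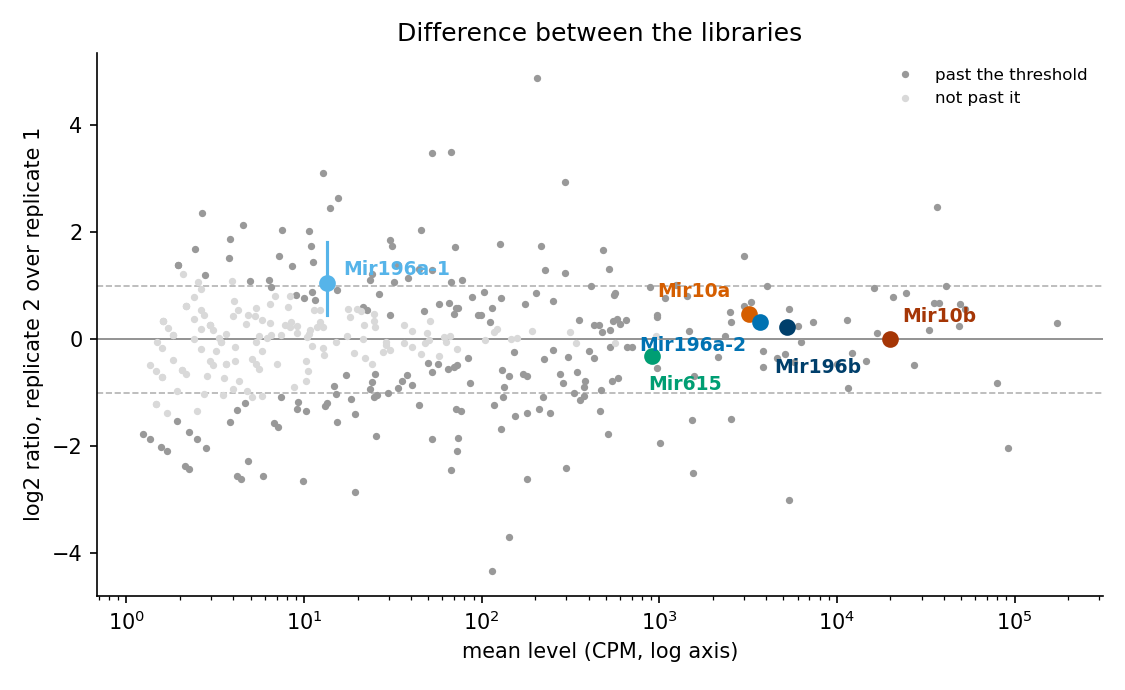
Log2 ratio of replicate 2 over replicate 1 against mean CPM (log axis) for the 380 genes tested, dark grey past an adjusted p of 0.05 and light grey not, with the members coloured, their 95% counting intervals as vertical lines and dashed lines at 2-fold. Of the members 5 lie between -0.32 and 0.48, and Mir196a-1, at 1.05 and with the widest interval, lies at a far lower level.

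Marker genes of the cell types a muscle holds differed between the libraries too. All 9 skeletal muscle markers were detected, and their sum was 65700.1 CPM in replicate 2, against 16413 CPM in replicate 1, a 4.00-fold difference carried by Mir206, which was at 61540.0 CPM in replicate 2, against 11810.0 CPM in replicate 1. Without Mir206 the other 8 summed to 4160.1 CPM in replicate 2 and 4603 CPM in replicate 1. Most of that was Mir486, at 3417 CPM in replicate 2 and 4241 CPM in replicate 1. Of the 9 markers, 3 had a log2 ratio above 0 (Mir206, Mir499 and Mir208b) and 6 one below 0. The endothelial marker Mir126a was at 55386 CPM in replicate 2, against 104418 CPM in replicate 1, and the erythroid pair Mir451a and Mir144 summed to 109 and 777 CPM in the same order. The smooth muscle and mural pair Mir143 and Mir145a summed to 56840.2 CPM in replicate 2 and 48845 CPM in replicate 1. The connective tissue list summed to 403 CPM in replicate 2 and 1632 CPM in replicate 1, with 2 of 3 genes detected and Mir199a-1 at 0, and the leukocyte list to 3527 and 2104 CPM in the same order, with 3 of 3 detected. The liver marker Mir122 was at 396 CPM in replicate 2 and 13.3 CPM in replicate 1, and none of 6 neural genes was detected, 5 of them with no count. The part of these differences in the ratios of the members was not tested. Reads that map to several places were left out of the marker counts as well. For genes with numbered copies (Mir1a, Mir133a, Mir199a and the neural genes), a low count or 0 thus does not show that the microRNA was scarce.

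The genes nearest to a member in log2(CPM + 1) over both libraries all lay on other chromosomes than the member. Mir100 was nearest to Mir10b, at a distance of 0.34 on the log2 scale, followed by Mirlet7d at 0.55 and Mir30a at 0.68. Mir99b was nearest to Mir196b at 0.24, followed by Mir744 at 0.29 and Mir27b at 0.37, so for Mir10b and Mir196b the nearest gene was a relative of Mir10. Mir10a had Mirlet7e at 0.16, Mir322 at 0.19 and Mir196a-2 at 0.31, and Mir196a-2 had Mir10a, Mirlet7e at 0.38 and the muscle marker Mir486 at 0.39. Mir615 lay nearest to Mir1839 (0.19), Mir127 (0.30) and Mir130a (0.54), and Mir196a-1 to Mir34c (0.30), Mir31 (0.31) and the microRNA gene Gm23935 (0.34). With 2 libraries this likeness is in effect one of level.

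The Hox genes themselves are not measured by these libraries, but their annotated 3′ untranslated regions show which hold letters complementary to the seeds. The motif ACTACCT, the complement of the Mir196 seed, occurred on the sense strand of the longest annotated 3′ region of 9 of 39 Hox genes (23.1%), against 6.81% of 21104 protein-coding genes. The motif ACAGGGT, the complement of the Mir10 seed, occurred in 4 of 39 (10.3%, against 12.9% of all). The complement of the miR-615-3p seed, GGCTCGG, occurred in 1 of 39 (2.56%, against 2.83% of all). The median length of these regions was 966 bases in Hox genes and 1086 bases in all genes. A longer match was found for Hoxb8, the known target of miR-196, at chr11:96284888-96284909 on the plus strand of GRCm38, with the base that departs from the full complement of miR-196a-5p in capitals.
Hoxb8 site: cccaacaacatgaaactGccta
The site matches the complement of miR-196a-5p at 21 of 22 bases, departing from it by A18G, with the complement's base first and positions counted from the site's 5′ end. It matches that of miR-196b-5p at 20 of 22 bases. A18G lies opposite the seed, so the site reads ACTGCCT there and does not hold the motif ACTACCT at that place. Among the 39 Hox genes this was the only site within 3 mismatches of the complement of any of the mature strands listed above. Such matches describe the sequence and do not show binding in this muscle.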

How the data were processed

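The authors deposited 1 table per library of raw counts of reads per microRNA gene, on mm10 and GENCODE M21 per the readmes beside the files. The alignment, trimming and counting software was not given in the sources used here. By their values, the 3 count columns hold unstranded, sense and antisense counts, and the sense counts were used. Reads in no gene were kept out of totals: 80.2% of replicate 2 and 84.3% of replicate 1, multimapping reads included. Symbols and coordinates came from M21, which is on the same assembly, and sequences from RefSeq, whose table held mature strands for 6 members and hairpins for 5.

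CPM used totals of assigned counts. TMM factors came from genes with 10 or more counts. Named genes were the members, the 3 genes nearest to each, Mir99a, Mir99b, Mir100 and the marker lists; members and lists were chosen with earlier results of these data known. The binomial test was checked on simulated counts with counting error only, so the check does not cover other variation between libraries. Intervals cover counting error of reads only. No molecular identifiers are named, so reads copied from 1 molecule were not told apart and the intervals may be too narrow. A count of 0 allows up to 1.39 CPM in replicate 2 and 0.675 CPM in replicate 1. Tools were edgeR 4.0.16 and DESeq2 1.42.0 in R 4.3.3, and scipy 1.17.1, numpy 2.4.6, matplotlib 3.10.9 and pandas 2.3.3 in Python 3.11.15.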

Additional observations from a re-analysis of the deposited data

How the results depend on the processing

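The members' summed share of 3.30% was 4.57% with the counts without strand, 3.99% with the most abundant gene left out of the total and 0.586% of all reads of the tables; leaving out either library gave 3.27% to 3.33%. All 6 members were detected under the alternatives run except a threshold of 10 CPM and, chosen after seeing the data, all reads of the tables as the total, each of which left 5. The mean log2 ratio of Mir10b over Mir10a ranged from 2.42 to 2.88 with either library left out. Between the replicates, 5 or 6 members and 211 to 237 genes passed under the 9 alternatives, 1 of which, TMM factors from all genes with a count, was also chosen after seeing the data. Only the ratio of Mir10b changed sign: it was -0.0085 with the counts without strand, -0.025 with DESeq2's size factors, -0.079 with plain totals, and -0.13 with no count filter and with TMM factors from all genes. TMM factors from all genes moved all log2 ratios by -0.053 against plain totals, where the one used moved them by 0.0932. The log2 ratio of Mir196a-1 ranged from 0.81 with a pseudocount of 5 CPM to 1.55 after thinning replicate 1 to the total of replicate 2. No paired analysis was possible because the labels form 1 group. Counting error was largest for Mir196a-1, with 39 counts per library.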

Other observations

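On the strand opposite to the members, the tables held 1 count for Mir10a in replicate 1 and none for any other member or library.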
